A study of Rattus norvegicus with 12 samples.

Results

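The genes of de novo lipogenesis, the pathway by which a cell builds fatty acids from carbohydrate carbon, were examined in rat epididymal adipocytes after chronic unpredictable stress (CUS). They were chosen by name: Slc25a1, Acly, Acss2, Acaca, Acacb, Fasn, Me1, Thrsp, Mlxipl and Srebf1, 10 genes in all, each taken with every probe that carries its name on the array. Of these, 9 had a probe, 10 probes in all (Me1 has 2), out of 30367 probes of 26511 named genes or transcripts on the array, of which 17410 were tested. No probe carries the name Srebf1. A probe that the array design describes as SREBP-1, the protein of that gene, is named only by a transcript identifier, and it is given beside the members without being counted among them. Epididymal adipocytes were taken from male Fisher 344 rats, about 12 weeks old when purchased, 6 that had been through CUS for 35 days (2 stressors each day in a randomised order) and 6 controls that were handled when weighed, and total RNA was hybridised to 1-colour Agilent arrays, 1 array per rat. The stressors included swimming, rotation, isolation, crowding, changed lighting, wet bedding and overnight withdrawal of food and water, so that access to food differed between the groups as part of the treatment. The labels name adipocytes as the source, while their extraction text speaks of preadipocytes.

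In lipogenesis, citrate leaves the mitochondrion through the carrier Slc25a1 and is cleaved in the cytosol by ATP citrate lyase (Acly) to acetyl-CoA, which acyl-CoA synthetase short-chain family member 2 (Acss2) can also make from acetate. Acetyl-CoA carboxylase turns acetyl-CoA into malonyl-CoA, and fatty acid synthase (Fasn) builds palmitate from it with NADPH that malic enzyme (Me1) helps to supply. In adipose tissue the pathway follows feeding and insulin, through the transcription factors SREBP-1 and ChREBP (gene Mlxipl), and Thrsp, also known as Spot 14, is a small protein that accompanies it.

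Array signals are given as log2 intensity relative to the 75th percentile of the same array, so that 0 is the level below which 75% of the non-control probes lay and a difference of 1 is a 2-fold difference. The 75th percentile was an intensity of 541 to 627 on the CUS arrays and of 229.8 to 399.7 on the control arrays, a log2 difference of 0.78 (exact permutation p = 0.0022, two-sided, the smallest that 6 against 6 allows), while the added spike-in RNAs differed by -0.05 (exact permutation p = 0.73). All CUS arrays lay on one slide and all control arrays on another, so that stress and slide cannot be told apart in any comparison here. In such bulk RNA, fewer cells of a type and less RNA per cell cannot be told apart either. Each array is a separate rat by its label, and the labels do not say whether the cells of several rats were pooled.

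The array reads each gene through 60-base strands, and the strands of 5 members are shown because they fix which part of which gene was measured, above all for the paired carboxylases Acaca and Acacb. They are printed in lower case, 5′ to 3′, with positions on the rat build rn4 as the array design gives them. The Fasn and Mlxipl strands, not shown, are unmapped in that design. All 5 contain at least 1 reading frame without a stop codon. The Slc25a1 strand maps to chr11:85045916-85046057 on the plus strand, a span of 142 bases that is longer than the strand. The Acaca strand maps to chr10:72499952-72500011 on the plus strand and begins at base 296 of the transcript, near its start. The Acacb strand maps to chr12:43388775-43389414 on the minus strand, a span of 640 bases, and begins at base 7215, far downstream. The Acss2 strand maps to chr3:146056348-146056407 on the plus strand, and the Thrsp strand to chr1:154651216-154651275 on the minus strand.
Slc25a1: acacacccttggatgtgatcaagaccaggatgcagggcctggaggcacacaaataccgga
Acaca: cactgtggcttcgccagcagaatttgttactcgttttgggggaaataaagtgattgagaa
Acacb: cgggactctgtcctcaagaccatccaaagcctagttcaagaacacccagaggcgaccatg
Acss2: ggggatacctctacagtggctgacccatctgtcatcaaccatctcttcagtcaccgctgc
Thrsp: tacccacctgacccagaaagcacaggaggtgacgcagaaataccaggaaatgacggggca

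The genes of citrate export and of palmitate synthesis were higher in the CUS rats, as were those of malic enzyme, acetate activation and Thrsp. Between export and synthesis, the citrate-cleaving enzyme and the cytosolic carboxylase did not pass the test, and neither did the ChREBP gene. Of the 8 members whose brightest probe was well above background on all 12 arrays, 5 were higher in CUS at an adjusted p under 0.05 (Slc25a1, Fasn, Me1, Acss2 and Thrsp), none was lower and 3 did not pass (Acly, Acaca and Mlxipl), by limma, with p-values adjusted after Benjamini and Hochberg across every tested probe. Over all 17410 tested genes, 24.1% were called higher and 25.9% lower in this comparison. Slc25a1 and Fasn were higher by at least 2-fold, which 3.18% of all tested genes were. The remaining member, Acacb, passed the filter on dim probes through its CUS arrays alone and is described apart. The median log2 difference of the 8 members was 0.97, against -0.03 over all tested genes.

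**Figure D1:**
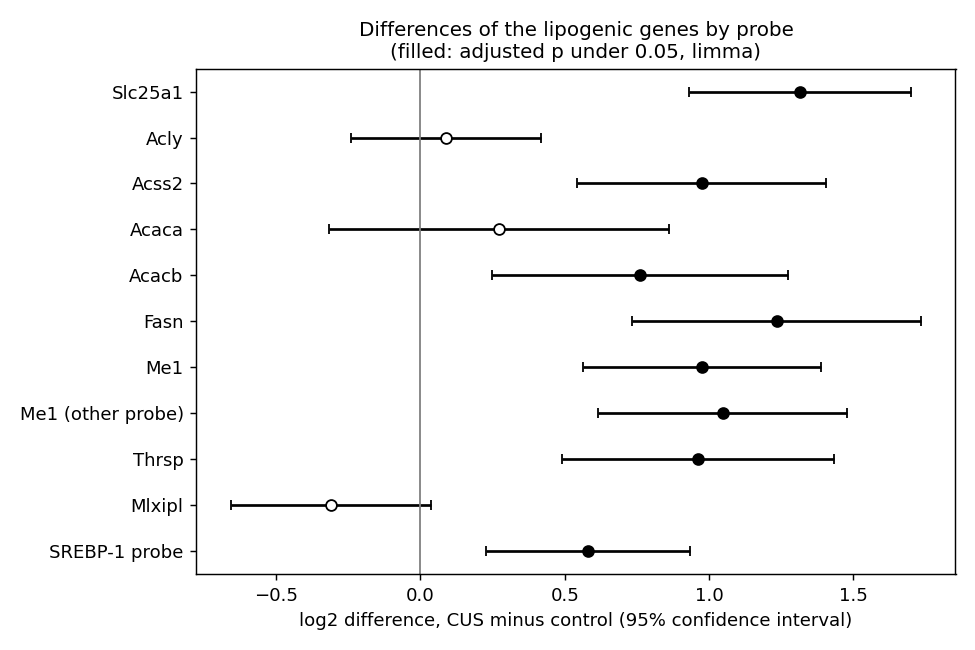
Log2 difference between CUS and control rats (x axis, 0 marked by the grey line) for each probe of the lipogenic genes and for the probe described as SREBP-1 (y axis), with 95% confidence intervals from limma over 6 rats per group. Filled points passed an adjusted p of 0.05. Slc25a1 lies farthest to the right at 1.31 and Mlxipl lies below 0 at -0.31 with an interval that includes 0.

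Slc25a1, the citrate carrier of the inner mitochondrial membrane, ranged from -1.16 to -0.11 (median -0.88) in the control rats and from 0.11 to 0.82 (median 0.58) in the CUS rats. Every CUS value lay above every control value, and among the 8 members only Slc25a1 was separated in this way, as were 10.3% of all tested genes. Its signal was 2.49-fold higher in CUS, a log2 difference of 1.31 (SE 0.18, n = 6 per group, limma adjusted p = 0.00012).

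Acly, which cleaves the exported citrate, ranged from 3.94 to 4.87 (median 4.29) in the control rats and from 4.07 to 4.71 (median 4.47) in the CUS rats. The groups overlapped along nearly their whole range, with a log2 difference of 0.09 (SE 0.15, 95% confidence interval -0.24 to 0.42, limma adjusted p = 0.65).

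Acss2, the acetate-activating enzyme, ranged from -0.21 to 1.19 (median 0.17) in the control rats and from 0.89 to 1.42 (median 1.35) in the CUS rats. In both directions the overlap came from 1 rat: 5 of the 6 CUS values lay above all controls, and 5 of the 6 control values lay below all CUS values. The signal was 1.97-fold higher in CUS, a log2 difference of 0.97 (SE 0.20, limma adjusted p = 0.0018). Within each array, Acss2 minus Acly, the routes to acetyl-CoA from acetate and from citrate, was -4.03 ± 0.38 in control and -3.14 ± 0.15 in CUS (SD, n = 6). The difference of 0.89 does not depend on the scaling of the arrays, since both signals are read on the same array, while the level of the difference itself, between 2 probes, has no meaning (exact permutation p = 0.0022, adjusted p = 0.0032 over 3 such pairs).

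Fasn, the multi-enzyme chain that makes palmitate, ranged from 2.64 to 3.99 (median 3.12) in the control rats and from 3.90 to 4.95 (median 4.48) in the CUS rats. A single control rat reached the CUS range. The signal was 2.35-fold higher in CUS, a log2 difference of 1.23 (SE 0.23, limma adjusted p = 0.001).

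Me1, the cytosolic malic enzyme, was read by a pair of probes at different places of its transcript, beginning at bases 2938 and 1625, and both gave the same picture. At the brighter probe the control rats ranged from 2.44 to 3.55 (median 2.52) and the CUS rats from 3.28 to 3.89 (median 3.79). At the other probe the control rats ranged from 0.19 to 1.66 (median 0.67) and the CUS rats from 1.43 to 1.93 (median 1.88). At both probes 5 CUS values lay close together above all controls, and 5 control values lay below all CUS values. The log2 differences were 0.98 (SE 0.19, limma adjusted p = 0.0013) and 1.05 (SE 0.20, limma adjusted p = 0.0011).

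Thrsp, whose product is found in tissues that make fat, ranged from 4.94 to 6.42 (median 5.19) in the control rats and from 6.01 to 6.52 (median 6.39) in the CUS rats. The highest control value lay inside the CUS range and the other 5 lay below it. The signal was 1.95-fold higher in CUS, a log2 difference of 0.96 (SE 0.22, limma adjusted p = 0.0033).

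The carboxylases, which make malonyl-CoA, gave dim signals on these arrays, and neither was settled as the enzymes above were. Acaca, the cytosolic form that feeds fatty acid synthesis, ranged from -3.23 to -1.67 (median -2.72) in the control rats and from -2.64 to -1.76 (median -2.26) in the CUS rats. Both groups spread widely and overlapped, and its log2 difference of 0.27 had a 95% confidence interval from -0.32 to 0.86 (limma adjusted p = 0.42). Acacb, the mitochondrial form whose malonyl-CoA restrains fatty acid entry for oxidation, ranged from -5.99 to -4.28 (median -5.42) in the control rats and from -4.82 to -4.22 (median -4.44) in the CUS rats, or from 5.94 to 11.8 and from 19.3 to 29.0 as intensities. It was well above background on all CUS arrays and on none of the control arrays. Its measured log2 difference was 0.76 (limma adjusted p = 0.018), for a probe that entered the test through CUS alone. Control values below the lowest signal well above background on their array were also raised to that signal. Acacb was then 1.59-fold higher in CUS, a value that was not itself tested. This direction turned to -0.35 (limma adjusted p = 0.0086) when the background was corrected by another method (normexp). Acacb minus Acaca within each array was -2.80 ± 0.59 in control and -2.31 ± 0.21 in CUS (SD, n = 6), a difference of 0.49 that did not pass (exact permutation p = 0.069, also 0.069 after adjustment over the 3 pairs). Under normexp this difference also turned, to -0.29, and passed in that direction (exact permutation, adjusted p = 0.03 over the 3 pairs).

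Of the transcription factors, Mlxipl was the member with a negative difference. It ranged from -2.03 to -1.03 (median -1.71) in the control rats and from -2.37 to -1.79 (median -1.88) in the CUS rats. The groups overlapped, and the log2 difference of -0.31 did not pass (SE 0.16, 95% confidence interval -0.66 to 0.04, limma adjusted p = 0.12). The probe described as SREBP-1, which lies at chr10:46462235-46462294 on the minus strand of rn4, ranged from 4.39 to 5.29 (median 4.45) in the control rats and from 4.76 to 5.43 (median 5.27) in the CUS rats. Here too 5 of the 6 controls lay below all CUS rats, and the log2 difference was 0.58 (SE 0.16, limma adjusted p = 0.011). The factors separated from each other within the arrays: Mlxipl minus SREBP-1 was -6.29 ± 0.19 in control and -7.18 ± 0.09 in CUS (SD, n = 6). The CUS values ran from -7.29 to -7.09 and the control values from -6.51 to -6.02, with no overlap and a difference of -0.89 (exact permutation p = 0.0022, adjusted p = 0.0032 over the 3 pairs). Among the 25 alternatives, Mlxipl was higher in CUS (0.52, limma adjusted p = 0.042) only under spike-in scaling, which raised the median of all tested genes to 0.80.

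**Figure D2:**
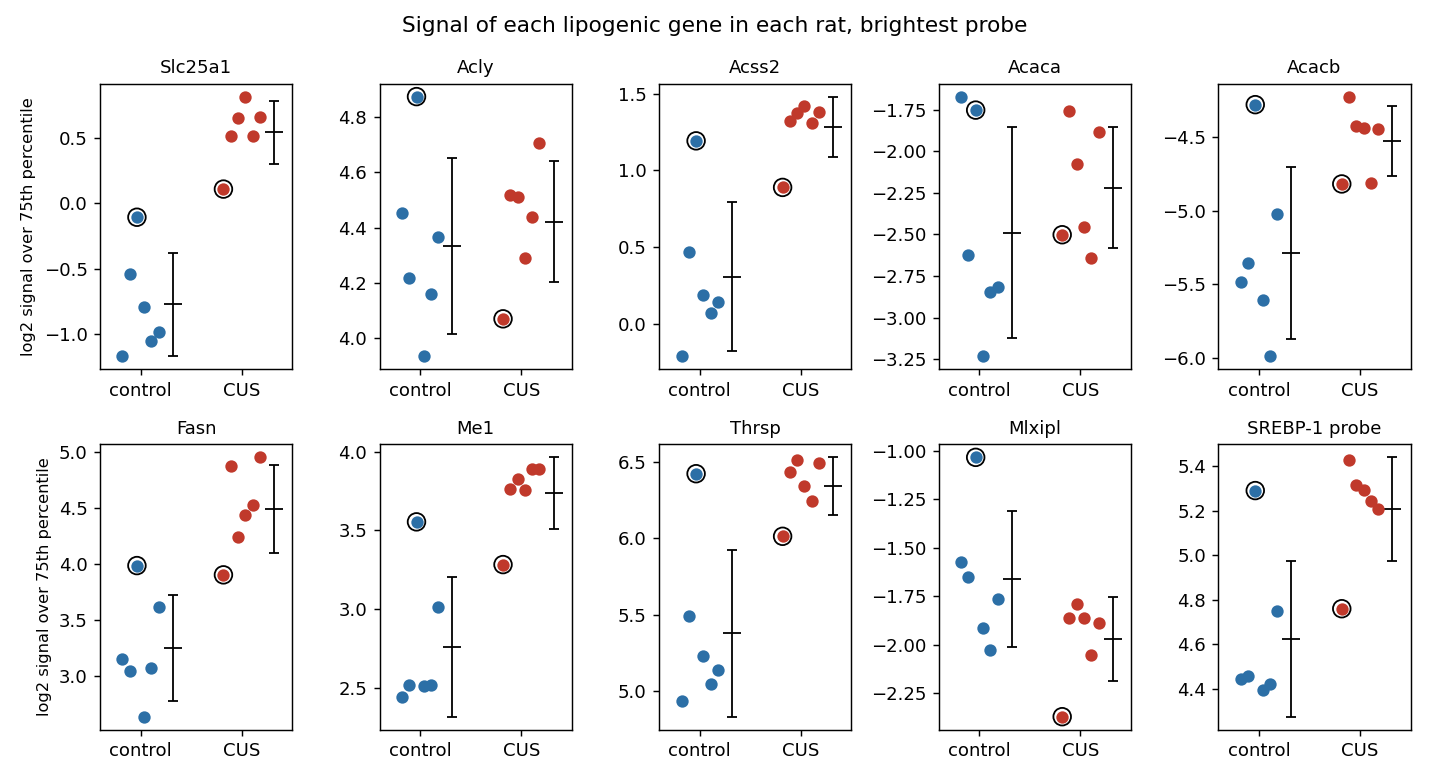
Log2 signal relative to the 75th percentile of the array (y axis, a separate range for each gene) in 6 control and 6 CUS rats (x axis), 1 point per rat in order of replicate number, with the mean and SD beside each group. Rings mark control replicate 3 and CUS replicate 1, and in Slc25a1 the ringed values of -0.11 and 0.11 are the nearest to each other across the groups.

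In signals relative to the 75th percentile, the same 2 rats bounded nearly every member. Control replicate 3 was the highest control for 8 of the 9 measured members, Acaca excepted, and CUS replicate 1 was the lowest CUS rat for 8 of the 9, again with Acaca excepted. As intensities before scaling, at the brightest probes, control replicate 3 was the highest control only for Acacb and Thrsp. How often these rats bounded their groups over all tested genes was not counted. Of the 12 arrays, that of control replicate 3 had the lowest 75th percentile (229.8), to which its signals are relative. It also had the smallest share of probes well above background (60.4%). The part of this in its high values was not tested. The median signal over the 9 members was 1.19 in control replicate 3, against -0.21 to 0.47 in the other controls, and 0.89 in CUS replicate 1, against 1.31 to 1.42 in the other CUS rats. Without control replicate 3, no CUS value of Slc25a1, Fasn, Me1, Acss2 or Thrsp overlapped the remaining controls, as was the case for 19.6% of all tested genes. Since that rat was picked out as the highest control of these genes, wider gaps and larger differences without it follow from the choice. The log2 differences were then 1.45 for Slc25a1, 1.38 for Fasn, 1.13 for Me1, 1.15 for Acss2 and 1.17 for Thrsp, and these 5 passed as higher, as they did with all arrays.

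Markers of other cells moved with the groups and with these rats. Levels of a marker list are means of log2 signal over its tested markers. The adipocyte list, led by Cfd and Adipoq, lay between 4.68 and 5.03 in CUS and between 4.38 and 4.60 in the 5 other controls, and stood at 5.42 in control replicate 3. This order rested on Cidec, a lipid droplet gene that was higher by 1.67: without it the CUS rats (4.70 to 5.01) overlapped those 5 controls (4.55 to 4.83), and control replicate 3 was again the highest rat (5.53). Adipoq, the adiponectin gene that defines fat cells, was far above the 75th percentile in every rat, from 8.13 to 9.20 in control and from 8.33 to 8.70 in CUS. Of the 9 markers in the adipocyte list 3 were higher, 3 lower and 3 did not pass, with 0.17 (adjusted p = 0.41) for Adipoq and -0.39 (adjusted p = 0.038) for Cfd by limma. Lipe did not pass at its brightest probe (-0.02) but was lower at another (-1.07, limma adjusted p = 0.00034). Control replicate 3 also had the lowest levels of any rat for endothelial markers (-0.50, against 1.07 to 1.51 in the other controls), macrophage markers (-1.27) and mesothelial markers (-3.09), and the lowest of the controls for smooth muscle and pericyte markers (-0.86) and for fibroblast and preadipocyte markers (0.69). CUS replicate 1 had the highest levels among the CUS rats for endothelial (0.59), smooth muscle (0.39), fibroblast (1.30), macrophage (0.63) and mast cell markers (-1.63). When the arrays were scaled on the adipocyte list in place of the 75th percentile, the same members stayed higher, by 1.11 for Slc25a1, 1.03 for Fasn, and 0.77, 0.77 and 0.76 for Me1, Acss2 and Thrsp, while Mlxipl became lower by limma (-0.52, adjusted p = 0.002). Scaled on the list without Cidec, they were higher by 1.29, 1.21, 0.95, 0.95 and 0.94, and Mlxipl was lower by limma (-0.33, adjusted p = 0.019).

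All 7 red blood cell markers were higher in CUS, with list levels of 5.42 to 6.20 against 0.45 to 1.45, and so were 8 of 9 mast cell markers (Kit, at 0.29, did not pass), with -3.07 to -1.63 against -5.28 to -4.90. The globin genes Hba-a1 and Hbb differed by 4.16 and 4.09, and the mast cell genes Hdc and Cma1 by 2.68 and 4.39. Of the mast cell markers, Mcpt1, Ms4a2 and Fcer1a were, at their brightest probe, well above background on none of the control arrays, so that they passed the filter on dim probes through CUS alone. Endothelial markers were lower for 4 of 8 (Pecam1 -1.46, Kdr not passed at -0.49) and smooth muscle and pericyte markers for 5 of 7 (Myh11 -1.39, with Cspg4 higher at 0.41). Fibroblast and preadipocyte markers were lower for 3 of 7 (Col3a1 -1.17, Dcn not passed at 0.23), and mesothelial markers were higher for 3 of 4 (Msln 1.38, Wt1 not passed at -0.36). Macrophage markers were higher for 2 of 7 (C1qa 0.99, Cd68 not passed at -0.56), but the second, Csf1r, was higher by 1.25 at its brightest probe and lower at another (-1.25, limma adjusted p = 6.8e-06), and none of 3 tested T and NK cell markers passed (Nkg7 0.04, Cd3g 0.59), with Cd3e and Cd2 too dim to be tested. The part of these cells in the lipogenic differences was not tested.

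The counts of the lists that follow stand beside 24.1% of all tested genes called higher and 25.9% called lower. Of 17 tested genes of pyruvate and citrate supply and its control, 13 were higher in CUS and 0 were lower. Their median log2 difference was 0.59, against -0.03 over all tested genes. The 13 include Pdk1 (1.11) and Pdk2 (0.45), kinases that inhibit pyruvate dehydrogenase, while Pdha1 (0.14), Dld (0.57), Pdp1 (0.15) and Pdk4 (-0.42) did not pass, all named after their values were seen. Mdh2, the mitochondrial malate dehydrogenase, rose by 1.35 (SE 0.15, limma adjusted p = 2.9e-05) and did not overlap between the CUS rats (1.70 to 2.11) and the controls (0.27 to 1.22). Its cytosolic partner Mdh1, which makes the malate that Me1 uses, rose by 1.11. Pdhb, a subunit of pyruvate dehydrogenase, rose by 1.30 without overlap, and pyruvate carboxylase (Pc), which replenishes oxaloacetate for citrate, by 1.15. As with the members, control replicate 3 gave the highest control value of these 4 genes.

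Among 9 tested genes of NADPH supply other than Me1, 4 were higher, 1 was lower and 4 did not pass, with a median of 0.27. Cytosolic isocitrate dehydrogenase (Idh1) rose by 0.93 (SE 0.15, limma adjusted p = 0.00046), Mthfd1 of the folate pathway by 0.56 and Pgls of the pentose phosphate pathway by 0.36. Me3, a malic enzyme of mitochondria, went the other way from Me1, with a log2 difference of -0.78 (SE 0.29, limma adjusted p = 0.038). Its value in control replicate 3 (-2.48) nevertheless lay below every CUS value (-2.29 to -1.36).

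Of 12 tested genes that control acetyl-CoA carboxylase or handle malonyl-CoA, 6 were higher, 1 was lower and 5 did not pass, with a median of 0.13. One of the 6 was Mcat, the mitochondrial malonyl transferase. It was well above background on none of the control arrays and passed the filter on dim probes through CUS alone. Its measured log2 difference was 1.34 (limma adjusted p = 1.9e-05). With control values raised as for Acacb, Mcat was 2.27-fold higher in CUS, a value that was not itself tested. Mlycd, which breaks malonyl-CoA down, rose by 0.72 (SE 0.14, limma adjusted p = 0.0015), and the catalytic subunits of AMPK, the kinase that switches the carboxylases off, rose by 0.63 (Prkaa1) and 0.69 (Prkaa2).

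Of 12 tested genes of SREBP processing and its partner factors, 5 were higher, none was lower and 7 did not pass, with a median of 0.16. Insig1, a target of SREBP that also retains it in the endoplasmic reticulum, rose by 1.00 (SE 0.25, limma adjusted p = 0.0063), although its value in control replicate 3 (4.44) lay within the CUS range of 4.04 to 4.50. Insig2 rose by 0.65, and the E-box binding factors Usf2 and Usf1 by 0.75 and 0.52. Of 10 tested partners of ChREBP and of the liver X receptors, 3 were higher, 1 was lower and 6 did not pass, with a median of 0.22, a share of higher calls near that of all tested genes. Mlx, the obligate partner of ChREBP, rose by 0.55 (SE 0.09, limma adjusted p = 0.0003) without overlap of the groups. The thyroid hormone receptor Thra rose by 0.48 and the liver X receptor Nr1h3 by 0.33, and the retinoid receptor Rxrb fell by 0.26.

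Beyond palmitate, 13 genes of elongation, desaturation and activation were tested, of which 6 were higher, 1 was lower and 6 did not pass, with a median of 0.13. Hsd17b12 and Tecr, which carry out steps of the elongation cycle, rose by 1.49 and 0.53, the desaturase Fads1 by 1.23 and the elongase Elovl5 by 0.63. Of 12 tested genes that use acetyl-CoA otherwise, 8 were higher, none was lower and 4 did not pass, with a median of 0.47. Acat1, the mitochondrial acetoacetyl-CoA thiolase, rose by 1.05 (SE 0.16, limma adjusted p = 0.00023) without overlap, its cytosolic counterpart Acat2 by 0.68, the acetyl-CoA transporter Slc33a1 by 0.72 and Aspa, which frees acetate from N-acetylaspartate, by 0.85. In 3 genes of these lists, singled out after their values were seen, another probe passed as higher where the brightest did not (Rpe, Elovl1 and Elovl6).

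**Figure D3:**
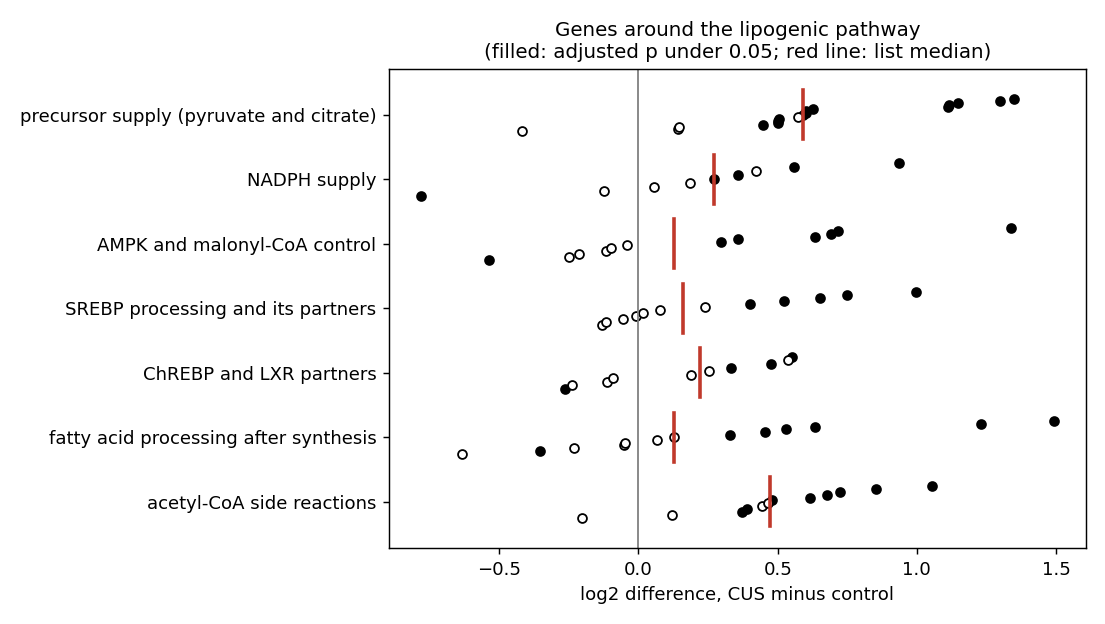
Log2 difference between CUS and control rats (x axis) for every tested gene of 7 lists around the lipogenic pathway (y axis), 1 point per gene at its brightest probe, filled where the adjusted p was under 0.05, with the list median as a red line. The median of pyruvate and citrate supply lies highest at 0.59 and those of SREBP processing, malonyl-CoA control and fatty acid processing lie between 0.13 and 0.16.

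The promoters of several members are shown so that a member that did not pass can be set beside members that rose. RefSeq sequences of the rat build GRCr8 were matched for 8 of the 10 genes. None was matched for Fasn and Acaca, so their promoters were not searched. The 250 bases before the start were searched on both strands for the letters TCACNCCAC (a sterol regulatory element, where SREBP binds), CACGTG (an E-box, bound by Usf1, Usf2 and SREBP-1), CCAAT (bound by NF-Y) and GGGCGG (a GC box, bound by Sp1). Some genes had more than 1 window and were counted if any of their windows held the letters. The shares given beside them are of single windows, so the counts and shares are not in like units. CCAAT was held by 7 of the 8 genes, Me1 excepted, and by 34.0% of all 33469 promoter windows of this length. GGGCGG was found in 6 of the 8 (Slc25a1, Acly, Acss2, Me1, Thrsp and Srebf1), against 30.5% of all windows. TCACNCCAC and CACGTG were in no window of the 8 genes, and in 0.974% and 5.59% of all windows. Acly, which did not pass, and Slc25a1 and Acss2, which rose, thus held the same kinds of letters, and the matches are a description of these windows only. The windows of Slc25a1 (chr11:96559804-96560053, plus strand), Acss2 (chr3:164464453-164464702, plus strand) and Acly (chr10:85963632-85963881, minus strand) are printed 5′ to 3′ with the CCAAT and GC boxes of either strand in capitals, and no 2 of these matches overlap.
Slc25a1: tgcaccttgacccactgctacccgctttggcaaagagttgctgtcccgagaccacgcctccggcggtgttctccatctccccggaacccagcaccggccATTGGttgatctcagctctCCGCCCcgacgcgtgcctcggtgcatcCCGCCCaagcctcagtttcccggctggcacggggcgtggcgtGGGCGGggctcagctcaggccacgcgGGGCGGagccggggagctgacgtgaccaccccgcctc
Acss2: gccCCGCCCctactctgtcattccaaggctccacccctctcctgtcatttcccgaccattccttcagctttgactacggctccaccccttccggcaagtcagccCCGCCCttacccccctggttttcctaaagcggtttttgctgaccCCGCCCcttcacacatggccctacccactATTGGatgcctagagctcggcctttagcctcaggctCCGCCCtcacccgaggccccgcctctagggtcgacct
Acly: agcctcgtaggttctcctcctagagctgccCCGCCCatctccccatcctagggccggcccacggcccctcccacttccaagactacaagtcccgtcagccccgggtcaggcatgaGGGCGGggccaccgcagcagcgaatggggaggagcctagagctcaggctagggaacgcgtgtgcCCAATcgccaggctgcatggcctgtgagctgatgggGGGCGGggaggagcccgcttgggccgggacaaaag

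Scaling on the spike-in RNAs raised all members together. It gave log2 differences from 0.52 for Mlxipl to 2.14 for Slc25a1, with all 9 measured members higher, but the median of all tested genes was then 0.80. Relative to that median, Mlxipl stood at -0.28, Acly at 0.11, Acaca at 0.30 and Slc25a1 at 1.34. Slc25a1, Fasn, Me1, Acss2, Thrsp and the SREBP-1 probe were called higher at an adjusted p under 0.05 under every one of the 25 alternatives. With any 1 array left out, the limma adjusted p was at most 0.0032 for Fasn, 0.0088 for Thrsp and 0.027 for the SREBP-1 probe. At their brightest probe, only Slc25a1 and Fasn of the measured members also exceeded the 2-fold limit that the methods of the study set.

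**Figure D4:**
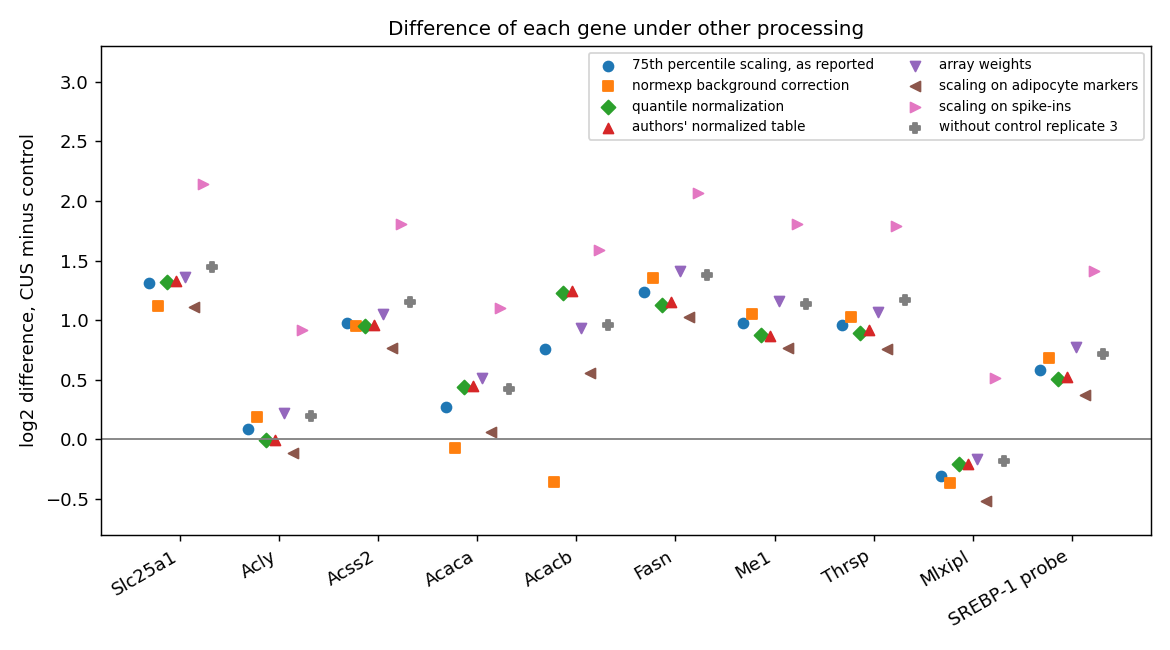
Log2 difference between CUS and control rats (y axis) for each lipogenic gene at its brightest probe (x axis) under 8 ways of processing the arrays, 1 symbol for each. Slc25a1 lies between 1.11 and 2.14, and Acacb is the gene that moves most, from -0.35 under normexp background correction to 1.59 under spike-in scaling.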

How the data were processed

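Per the file headers, the authors deposited spot intensity values from Agilent Feature Extraction 10.7.3.1, background-subtracted, corrected for trends across the slide and not normalized between arrays, and a quantile normalized intensity table on a linear scale. The files come from a gene expression array with rn4 positions, although the study speaks of exon arrays. Outlier spots were dropped, spots of a probe averaged, and log2 intensity expressed relative to each array's 75th percentile. The 19727 probes that 6 or more of the 12 arrays showed well above background were tested with limma 3.58.1 in R 4.3.3, two-sided, without covariates, and adjusted across all of them after Benjamini and Hochberg. A gene stands at its brightest probe. The procedure was tested on simulated data. Members and lists were chosen with earlier results of these data known. All members were named, and of each other list up to 4 called genes with the largest difference, or the lowest adjusted p where none passed, and of each marker list the 2 brightest markers. Differences between genes were compared by exact permutation of 12 arrays. Precision is limited by the number of arrays. Alternatives covered background correction, normalization, filter, probe choice, variance model, weights, the methods' t-test, a replicate block and leaving out each array, and scaling on adipocyte markers, with and without Cidec, was added after seeing the data, as was the SREBP-1 probe standing for Srebf1. Python 3.11.15, pandas 2.3.3, NumPy 2.4.6, SciPy 1.17.1 and matplotlib 3.10.9 were used for tables and figures.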

Additional observations from a re-analysis of the deposited data

Results flagged for a closer look

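Of 22 groups of 6 values, for each probe of the members and the SREBP-1 probe in CUS and in control, 4 had a value set apart by Dixon's test, which chance alone marks in about 1 of 20 groups. All 4 were the lowest value of the CUS group and came from CUS replicate 1, so that they are not independent of each other. That rat stood at 3.28 for the brighter Me1 probe, against 3.76 to 3.89 in the other CUS rats, and at 1.43 for the other Me1 probe, against 1.85 to 1.93. Its Acss2 signal was 0.89, against 1.31 to 1.42, and its SREBP-1 signal was 4.76, against 5.21 to 5.43. It also had the lowest adipocyte marker level of the CUS rats (4.68). Without CUS replicate 1 the log2 differences in these genes were larger, which follows from leaving out the lowest CUS rat.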

How the results depend on the processing

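Of the 8 members well above background on all arrays, 5 were called higher, 6 with array weights, 8 on spike-ins and 5 under each of the other 23 alternatives. Counted with Acacb, which passed the filter through CUS alone, 6 of 9 were called, 5 under normexp, 9 on spike-ins and 6 whichever array was left out. The count of members called lower was 0, but 2 under normexp (Acacb and Mlxipl) and 1 on adipocyte scaling with or without Cidec (Mlxipl), and 0 whichever array was left out. The median log2 difference of the members, 0.96, ran from 0.87 to 1.13 with 1 array left out and was 1.79 on spike-ins, which raised the share of higher calls among all calls from 48.2% to 96.2% (34.3% under normexp, 56.9% under quantile normalization, 28.1% with no filter, 27.0% on adipocyte scaling). Acly turned from 0.09 to -0.0013 under quantile normalization and to -0.0023 in the authors' table (limma adjusted p = 0.99) and to -0.12 on adipocyte scaling. Acaca turned to -0.069 and Acacb to -0.35 under normexp, and Mlxipl to 0.52 on spike-ins. Acaca passed with array weights (0.52, limma adjusted p = 0.049), Mlxipl passed under normexp (-0.37, limma adjusted p = 0.014), and Acacb did not pass by the methods' t-test without its 2-fold limit (adjusted p = 0.051) and was not tested where all 12 arrays had to be well above background. Acacb minus Acaca turned to -0.29 under normexp and passed there as lower in CUS (exact permutation, adjusted p = 0.03). Otherwise it ran from 0.29 to 0.61, passing without control replicate 4 (0.57) and without control replicate 6 (0.61). Mlxipl minus SREBP-1 ran from -0.94 to -0.84 and Acss2 minus Acly from 0.76 to 0.96 with 1 array left out. The cause of these changes was not tested. Replicate numbers did not pair the rats (correlations of same-numbered deviations from -0.19 to 0.43, 2 of 6 rats closest to their own number), and with them as a block the counts stayed at 6 and 0, the median at 0.96, and the pairs at 0.49, -0.89 and 0.89 (adjusted exact permutation p = 0.12, 0.047 and 0.047). With its 2-fold limit and an unadjusted p, the methods' t-test called 2 members higher (Slc25a1 and Fasn), of 554 genes called higher and 1520 lower, and 531 and 1370 after Benjamini-Hochberg.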
